A study of Mus musculus with 163 samples.

Results

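Genes of fatty acid oxidation and of the lipid droplet were followed through single mouse oocytes. They were taken by name, as the rows whose Entrez gene identifiers map to Cpt1a, Cpt2, Acadm, Acadl, Acadvl, Hadha, Hadhb, Plin2, Plin3 and Pnpla2. Of these 10 genes, the levels of 9 were analysed among the 21950 genes counted, and the level of Hadhb was not analysed here. Oocytes belonged to 7 groups at 2 stages of growth, the growing oocyte (GRO) and the fully grown oocyte (FGO). The iPSC-derived groups (23 GROs and 24 FGOs) came from a single female line of induced pluripotent stem cells, BVSC-iPSC, made from the tail tip fibroblasts of an adult and bearing reporters (Blimp1-Venus, Stella-ECFP). These cells were turned into primordial germ cell-like cells and placed in reconstituted ovaries with gonadal somatic cells of E12.5 Swiss Webster embryos. The gonad-derived groups (24 GROs and 24 FGOs) came from all cells of dissociated E12.5 gonads, primordial germ cells included. These cells were joined into reconstituted ovaries and entered a similar ovary culture. The 6 dpp FGOs (24) were grown in culture from follicles of pups at 6 days post partum, and the in vivo groups (24 GROs and 20 FGOs) developed in the animal. The labels give neither the strain nor the age of the in vivo animals. Each oocyte was a library of its own, freed of follicle cells and of its zona pellucida before lysis, and was prepared by Smart-seq2, which amplifies full-length polyadenylated RNA and does not mark its strand.

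No label ties an oocyte to an animal, embryo or culture, so that each group stands for 1 sample and no test between groups was made. The comparisons give levels, the spread over oocytes and a rule of size, 2-fold. Reads were scaled to the library, and the control RNA (ERCC) that the study added at lysis was not used here. A lower level thus cannot be told apart from more RNA of other genes in the same oocyte.

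Long-chain fatty acids are joined to coenzyme A by acyl-CoA synthetases and pass into mitochondria as carnitine esters. Carnitine palmitoyltransferase 1, of which Cpt1a encodes the liver form, makes the ester at the outer membrane and is held back by malonyl-CoA, and Cpt2 turns it back to acyl-CoA inside. There acyl-CoA dehydrogenases for very long, long and medium chains (Acadvl, Acadl, Acadm) open each round of beta-oxidation, and the trifunctional protein, whose alpha subunit is encoded by Hadha and whose beta subunit by Hadhb, carries out the steps that follow on long chains. Fatty acids are stored as triglyceride in lipid droplets coated by perilipins (Plin2, Plin3) and are released by adipose triglyceride lipase, the product of Pnpla2. Oxidation of fatty acids is known to be needed for mouse oocytes to resume meiosis and to gain competence, and mouse oocytes hold few droplets beside those of pig or cow.

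Total counts ran from 2.17 M to 13.7 M reads per oocyte (M, 1000000) with a median of 6.93 M, and gonad-derived FGOs 5 and 22 held the fewest. All 12 oocyte markers were detected in each group, with summed levels between 17632 and 61805 CPM (counts per 1000000 reads) per oocyte. Markers of blood cells and of adipocytes were near 0, with sums of at most 1.44 and 3.82 CPM. The 12 granulosa cell markers with values summed to medians between 50.0 and 54.6 CPM in GROs and between 90.1 and 128 CPM in FGOs. Of these markers, Cyp19a1 had pooled levels of 8.87 to 20.1 CPM in GROs and 61.9 to 77.2 CPM in FGOs. Nr5a2 had 19.6 to 27.3 CPM in GROs and 16.8 to 26.4 CPM in FGOs. In 4 FGOs the granulosa sum stood above 250 CPM. It was 1651 CPM in 6 dpp FGO 12 and 415 CPM in in vivo FGO 19. In 6 dpp FGO 10 it was 394 CPM and in in vivo FGO 16 363 CPM. Not all markers of the granulosa list were higher in these groups by pooled reads. Gja1 had 30.6 CPM in in vivo FGOs, more in 6 dpp FGOs and at most 8.29 CPM elsewhere. In 6 dpp FGOs Inhba had 9.91 CPM and Hsd17b1 8.04 CPM. Amh had 1 read in 6 dpp FGOs and 1.10 CPM in in vivo FGOs. Fshr had 2.25 CPM and 2.55 CPM in the same order, and 1.58 to 3.23 CPM elsewhere. The 10 markers of theca and stroma summed to 816 CPM in 6 dpp FGO 12 and 340 CPM in 6 dpp FGO 10, against a median of 14.5 CPM in their group. By pooled reads of 6 dpp FGOs, Hsd3b1 had 49.4 CPM, Cyp11a1 8.04 CPM and the other genes of this list at most 3.31 CPM. The ratios and correlations of Cpt1a are given with and without these oocytes. Libraries also differed by the number in their title, and the labels do not say what it marks. In in vivo GROs, 6.24% of 13422 genes had numbers 1 to 16 and numbers 17 to 24 without overlap, Hadha among them, and in gonad-derived FGOs 0.0589% of 13582 genes had, Acadl and Gpat3 among them. In the other 5 groups at most 1 gene did and 0 members. The part of this division in the results was not tested, and ratios of these genes are given with and without numbers 17 to 24.

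The first question was how strongly oocytes expressed each gene, which can be set between genes only per kilobase of transcript (RPKM, from the reads pooled over a group). Cpt2 had the highest level of the 9 genes in 6 of 7 groups, between 50.2 and 64.9 RPKM, and was second to Hadha in iPSC-derived FGOs, at 31.0 RPKM. Hadha ranged from 30.5 RPKM in in vivo FGOs to 39.8 RPKM in gonad-derived FGOs. Acadm lay between 13.8 and 27.1 RPKM, Pnpla2 between 14.8 and 31.1 RPKM and Plin3 between 11.0 and 40.3 RPKM. Plin2 lay between 6.60 and 13.5 RPKM. Acadl and Acadvl stayed below all of these, between 2.83 and 5.81 RPKM, and Cpt1a was the lowest in each group, between 0.137 and 0.373 RPKM. By CPM, Cpt2 stood at the 87.6th to 93.9th percentile of all genes and Cpt1a at the 47.5th to 54.1st.

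**Figure D1:**
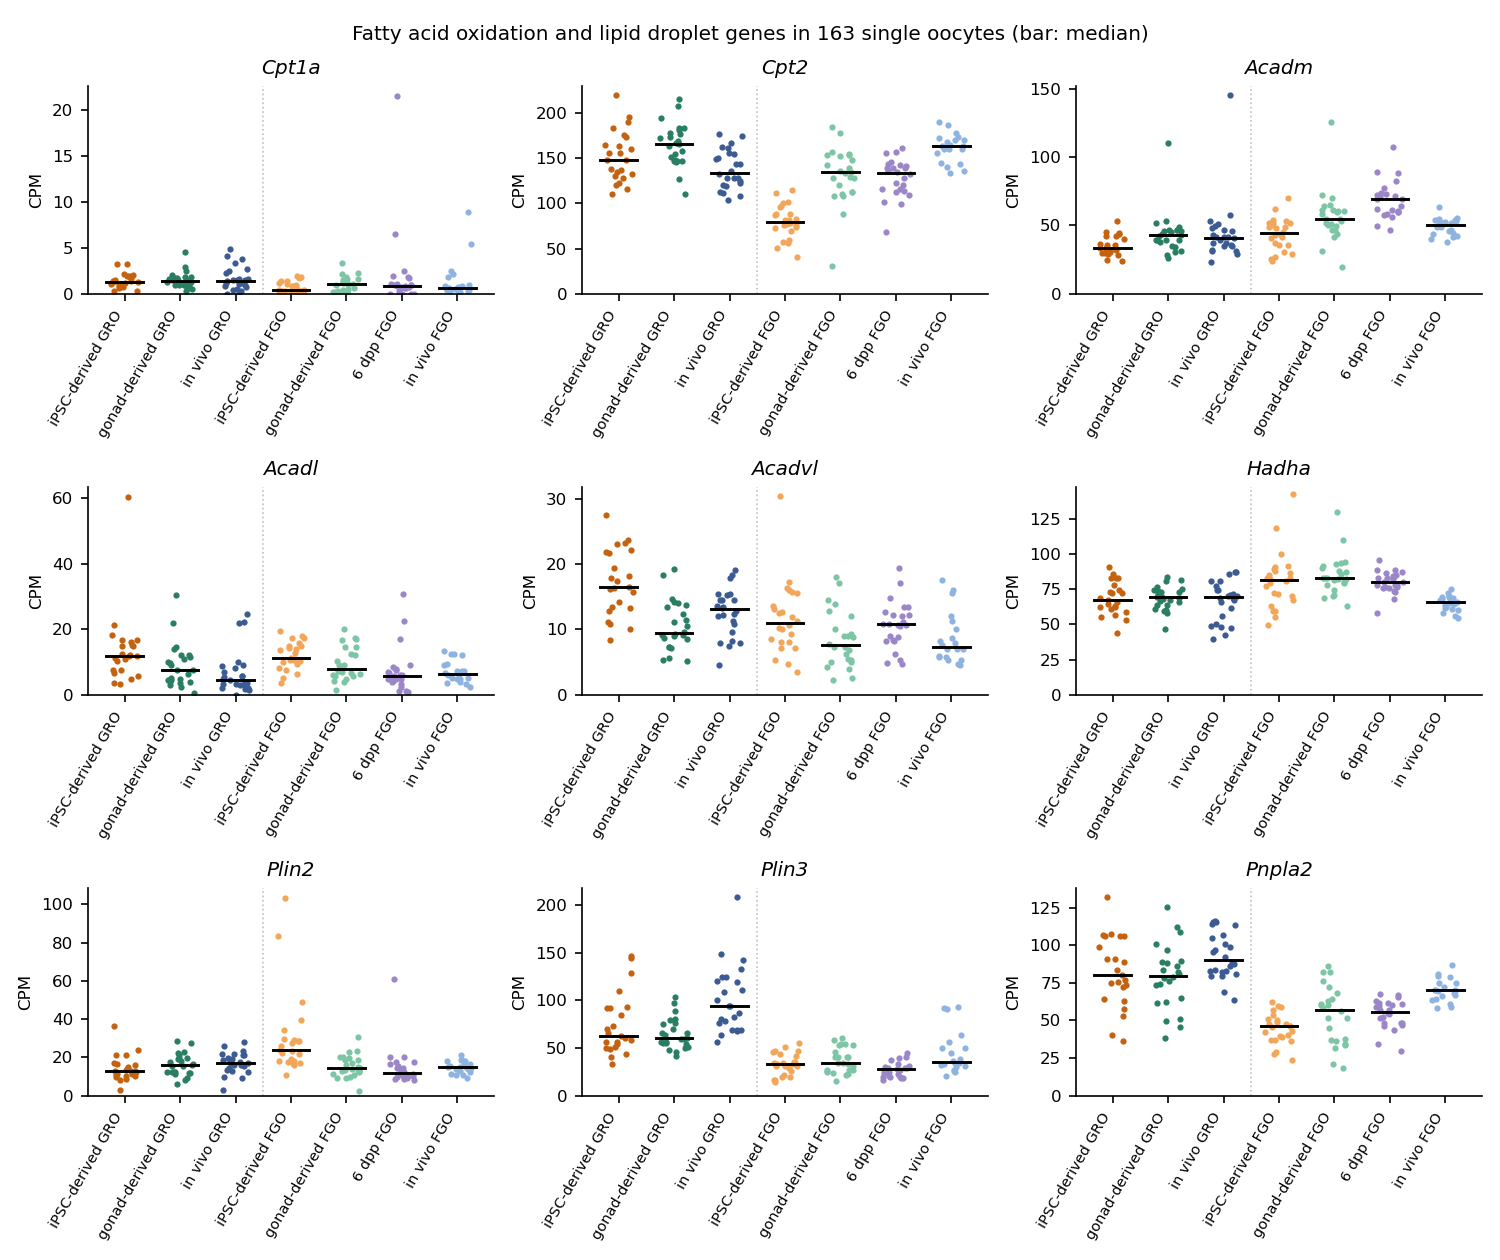
CPM of the 9 genes in each oocyte (points) by group on linear axes that start at 0, with the group median as a black bar and a dotted line between GROs and FGOs. Plin3 and Pnpla2 had their 4 lowest medians in the FGO groups, and Cpt2 had its lowest median, 79.8 CPM, in iPSC-derived FGOs.

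Cpt2 (Entrez 12896, chromosome 4, 107903982 to 107923589, GRCm38.p6), Plin3 (Entrez 66905, chromosome 17, 56278962 to 56290511) and Acadm (Entrez 11364, chromosome 3, 153922353 to 153944643) are shown by the bases before their transcription starts, because of the 9 genes Cpt2 varied most between sources and Plin3 most between stages, as given below, and Acadm was the most expressed of the dehydrogenases per length. Sequences are those of RefSeq, GRCm38.p6, minus strand, at chr4:107923611-107923839 (without 21 bases that an annotated exon holds), chr17:56290512-56290761 and chr3:153944644-153944893, 5′ to 3′. Capitals mark matches on either strand to the nuclear receptor half-site AGGTCA, the E-box CACGTG, the GC box GGGCGG and the CCAAT box CCAAT.
Cpt2: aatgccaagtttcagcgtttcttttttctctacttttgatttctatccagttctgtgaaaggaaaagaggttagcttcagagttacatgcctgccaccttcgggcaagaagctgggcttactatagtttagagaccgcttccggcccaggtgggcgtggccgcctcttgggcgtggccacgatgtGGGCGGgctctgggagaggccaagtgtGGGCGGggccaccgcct
Plin3: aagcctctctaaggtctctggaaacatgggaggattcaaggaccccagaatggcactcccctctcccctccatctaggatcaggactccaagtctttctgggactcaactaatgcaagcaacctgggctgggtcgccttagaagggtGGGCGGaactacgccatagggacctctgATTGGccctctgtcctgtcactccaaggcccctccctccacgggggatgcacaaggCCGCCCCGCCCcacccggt
Acadm: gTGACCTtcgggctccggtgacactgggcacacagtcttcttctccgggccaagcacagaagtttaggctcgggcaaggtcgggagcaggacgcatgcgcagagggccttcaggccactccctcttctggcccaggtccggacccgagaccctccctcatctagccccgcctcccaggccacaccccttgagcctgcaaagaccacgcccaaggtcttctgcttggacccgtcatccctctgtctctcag
In the 250 bases before the start, Cpt2 had 2 GC boxes, Plin3 had 3 GC boxes, of which a pair overlaps, and 1 CCAAT box, and Acadm had 1 half-site. Over the promoters of all 10 genes, 7 held a GC box, 4 a half-site, 3 a CCAAT box and 0 an E-box. The stretches of Hadha (30154981 to 30155230) and Hadhb (30155003 to 30155252) overlap, and both are counted among the 7. Among 32851 promoters of the same length, 32.7% held a GC box, 14.0% a half-site, 33.8% a CCAAT box and 6.02% an E-box. These matches are letters only, and binding was not measured.

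At the mitochondrial entry step, Cpt1a (Entrez 12894, chromosome 19, 3322326 to 3385735) was close to the limit of what a single oocyte could show. Cpt1a in GROs had a median of 1.44 CPM in vivo (0 to 4.85), 1.41 CPM from gonads (0.331 to 4.53) and 1.31 CPM from iPSCs (0.288 to 3.29). Cpt1a in FGOs had a median of 0.572 CPM in vivo (0.142 to 8.93), 0.848 CPM from 6 dpp follicles (0 to 21.6), 1.02 CPM from gonads (0 to 3.31) and 0.408 CPM from iPSCs (0 to 1.95). A median oocyte thus held between 3 and 9 Cpt1a reads, all groups overlapped, and no neighbours in the order of medians differed by more than the larger of their standard deviations. The 4 highest FGOs were 6 dpp FGO 12 (21.6 CPM, 140 reads), in vivo FGO 19 (8.93 CPM, 76 reads), 6 dpp FGO 10 (6.53 CPM, 42 reads) and in vivo FGO 16 (5.37 CPM, 37 reads), and these were also the 4 FGOs with granulosa sums above 250 CPM, in the same order. Of the 92 FGOs the next highest, gonad-derived FGO 19, had 3.31 CPM. Without the 4 oocytes the pooled Cpt1a level was 0.813 CPM instead of 1.89 CPM in 6 dpp FGOs, and in vivo FGOs had 104 reads (0.803 CPM) instead of 217. The log2 ratio of Cpt1a for growth in vivo was -0.11 with them and -0.72 without. That for 6 dpp against in vivo FGOs was 0.26 with them, 0.01 without them and -0.36 without 6 dpp FGO 12 alone. The part of granulosa cell RNA in these values was not tested.

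**Figure D2:**
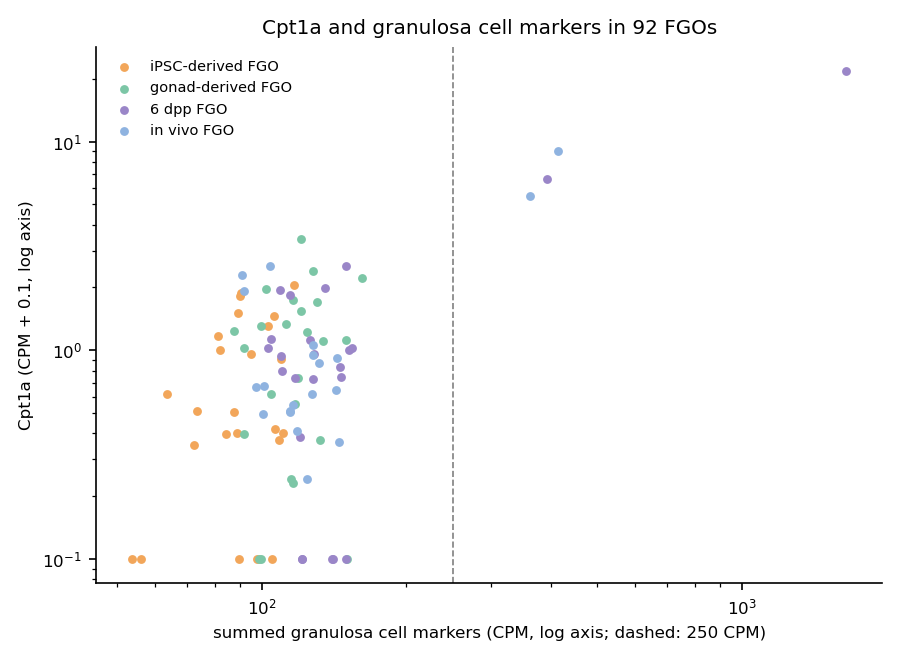
Cpt1a (CPM + 0.1, log axis) against the summed CPM of 12 granulosa cell markers (log axis) in 92 FGOs, coloured by group, with a dashed line at 250 CPM. The 4 oocytes to the right of the line, 2 from the 6 dpp and 2 from the in vivo group, held 5.37 to 21.6 CPM of Cpt1a, above the other 88.

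The other forms of the enzyme were no more abundant than a few CPM. Cpt1b, the muscle form, had at most 0.0453 RPKM in any group, and Cpt1c, the brain form, lay between 0.255 RPKM in iPSC-derived FGOs and 1.09 RPKM in in vivo GROs. Per length Cpt1c exceeded Cpt1a in all 7 groups. Cpt2, the next enzyme on the route, was at least 31.0 RPKM throughout.

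Cpt2 was well detected in each oocyte. Cpt2 in GROs had a median of 134 CPM in vivo (103 to 176), 166 CPM from gonads (110 to 215) and 148 CPM from iPSCs (110 to 220). Cpt2 in FGOs had a median of 164 CPM in vivo (134 to 190), 133 CPM from 6 dpp follicles (67.9 to 161), 134 CPM from gonads (30.2 to 184) and 79.8 CPM from iPSCs (41.0 to 115). The iPSC-derived FGOs stood lowest. In the order of medians only the last step, from 6 dpp to iPSC-derived FGOs, was wider than the larger standard deviation of the pair (21.3 CPM). All 24 iPSC-derived FGOs were below the median of the gonad-derived FGOs, but the ranges overlapped, with 17 of 24 gonad-derived FGOs above every iPSC-derived one. Gonad-derived FGO 19 had the lowest Cpt2 of all oocytes.

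Among the dehydrogenases Acadm provided most of the transcripts. Its median share of the 3, per length, was 72.2% in vivo, 70.7% from gonads and 57.0% from iPSCs among GROs. Among FGOs it was 77.2% in vivo, 82.4% from 6 dpp follicles, 77.6% from gonads and 65.3% from iPSCs. Thus at both stages the share was lowest in iPSC-derived oocytes, although single oocytes ranged from 39.2% to 92.3%. The share depends on Acadvl, whose exons share bases with another gene, as given below.

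Acadm in GROs had a median of 41.0 CPM in vivo (23.1 to 146), 42.9 CPM from gonads (25.9 to 110) and 33.5 CPM from iPSCs (24.2 to 53.3). Acadm in FGOs had a median of 50.1 CPM in vivo (38.1 to 63.7), 69.4 CPM from 6 dpp follicles (46.5 to 107), 54.6 CPM from gonads (19.2 to 125) and 44.2 CPM from iPSCs (23.8 to 70.3). The upper ends of 2 GRO ranges were single oocytes, gonad-derived GRO 7 and in vivo GRO 3. In the 6 dpp group 14 of 24 oocytes were above the highest in vivo FGO.

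Acadl (Entrez 11363, chromosome 1, 66830839 to 66863309) varied widely between oocytes of a group. Its coefficient of variation was 82.6% in iPSC-derived GROs, where values ran from 3.17 to 60.3 CPM, and 98.9% in in vivo GROs, where they ran from 0 to 24.5 CPM. Acadl in GROs had a median of 4.57 CPM in vivo (0 to 24.5), 7.62 CPM from gonads (0.575 to 30.3) and 11.8 CPM from iPSCs (3.17 to 60.3). Acadl in FGOs had a median of 6.25 CPM in vivo (2.38 to 13.5), 5.57 CPM from 6 dpp follicles (0.940 to 30.7), 7.96 CPM from gonads (1.44 to 19.9) and 11.0 CPM from iPSCs (3.55 to 19.3). Both iPSC-derived groups thus stood at the top of the order, in which no neighbouring groups differed by more than the larger standard deviation. The 3 highest of the 6 dpp FGOs were numbers 12, 3 and 10, at 30.7, 22.5 and 17.1 CPM. Their theca and stroma marker sums, 816, 67.0 and 340 CPM, were also the 3 highest of that group, and without these oocytes the pooled Acadl level of 6 dpp FGOs was 4.97 CPM instead of 7.22 CPM. The part of RNA from other cells in these values was not tested. Gonad-derived FGOs numbered 17 to 24 had 12.0 to 19.9 CPM of Acadl (median 15.7) and those numbered 1 to 16 had 1.44 to 10.3 CPM (median 6.47), so that these libraries did not overlap.

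Acadvl (Entrez 11370, chromosome 11, 70010183 to 70015428) had its highest median in iPSC-derived GROs. Acadvl in GROs had a median of 13.1 CPM in vivo (4.52 to 19.1), 9.43 CPM from gonads (5.18 to 19.2) and 16.4 CPM from iPSCs (8.39 to 27.5). Acadvl in FGOs had a median of 7.32 CPM in vivo (4.53 to 17.6), 10.8 CPM from 6 dpp follicles (4.63 to 19.4), 7.56 CPM from gonads (2.25 to 18.1) and 11.0 CPM from iPSCs (3.51 to 30.4). Annotated exons of Acadvl and of Dvl2, a Wnt signalling gene on the other strand, share 1151 bases, and Dvl2 had 15.8 to 28.9 CPM, so that reads from the shared stretch cannot be told apart. For Hadha the shared stretch, with Garem2, was 75 bases.

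Hadha (Entrez 97212, chromosome 5, 30119423 to 30154980) stayed between 65.1 and 85.0 CPM by pooled reads in all 7 groups. Hadha in GROs had a median of 69.3 CPM in vivo (39.6 to 87.2), 69.1 CPM from gonads (46.7 to 83.9) and 67.5 CPM from iPSCs (43.6 to 90.9). Hadha in FGOs had a median of 65.7 CPM in vivo (54.6 to 75.3), 80.3 CPM from 6 dpp follicles (58.1 to 95.9), 83.0 CPM from gonads (63.3 to 130) and 81.7 CPM from iPSCs (49.4 to 142). Its coefficient of variation was 8.35% in in vivo FGOs and 9.60% in 6 dpp FGOs, and 20 of 24 6 dpp FGOs were above the highest in vivo FGO. In vivo GROs numbered 1 to 16 had 65.9 to 87.2 CPM of Hadha (median 73.1) and those numbered 17 to 24 had 39.6 to 61.4 CPM (median 48.5), again without overlap. Hadhb lies head to head with Hadha, with its start at 30155253 on the other strand.

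On the lipid droplet, Plin3, whose product moves between cytosol and droplets, differed most by stage. Plin3 in GROs had a median of 94.5 CPM in vivo (55.9 to 208), 60.4 CPM from gonads (42.0 to 104) and 62.6 CPM from iPSCs (33.3 to 146). Plin3 in FGOs had a median of 35.7 CPM in vivo (21.1 to 93.3), 27.8 CPM from 6 dpp follicles (16.5 to 44.3), 34.5 CPM from gonads (15.2 to 60.2) and 32.8 CPM from iPSCs (14.5 to 55.2). All FGOs of the 3 sources with both stages lay below the GRO median of their own source, while the ranges of the stages overlapped in each source. The step from the lowest GRO median to the highest FGO median was wider than the larger standard deviation of the pair, the sole such step in the order. In vivo FGOs 5, 7 and 19 stood apart from their group at 93.3, 91.5 and 91.7 CPM.

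Plin2 (Entrez 11520, chromosome 4, 86626910 to 86670217), whose product is bound to droplets and is the main perilipin of most tissues, had its highest level in iPSC-derived FGOs. Plin2 in GROs had a median of 17.3 CPM in vivo (2.97 to 27.8), 15.8 CPM from gonads (6.12 to 28.4) and 12.7 CPM from iPSCs (3.15 to 36.7). Plin2 in FGOs had a median of 14.9 CPM in vivo (9.49 to 21.0), 12.0 CPM from 6 dpp follicles (8.31 to 61.0), 14.2 CPM from gonads (2.44 to 30.7) and 23.8 CPM from iPSCs (11.0 to 103). All groups overlapped. The iPSC-derived values were drawn upward by FGOs 14 and 13, at 103 and 83.7 CPM, the next being 49.2 CPM, and the highest 6 dpp value was that of FGO 3.

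The balance of the coat genes was different at the FGO stage. Per length, the median ratio of Plin2 to Plin3 was 0.205 in vivo, 0.276 from gonads and 0.241 from iPSCs among GROs. Among FGOs it was 0.412 in vivo, 0.595 from 6 dpp follicles, 0.462 from gonads and 0.838 from iPSCs. Plin2 exceeded Plin3 in 0 GROs. It did so in 10 of 24 iPSC-derived FGOs, 2 of 24 gonad-derived FGOs, 1 of 24 6 dpp FGOs and 0 of 20 in vivo FGOs.

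**Figure D3:**
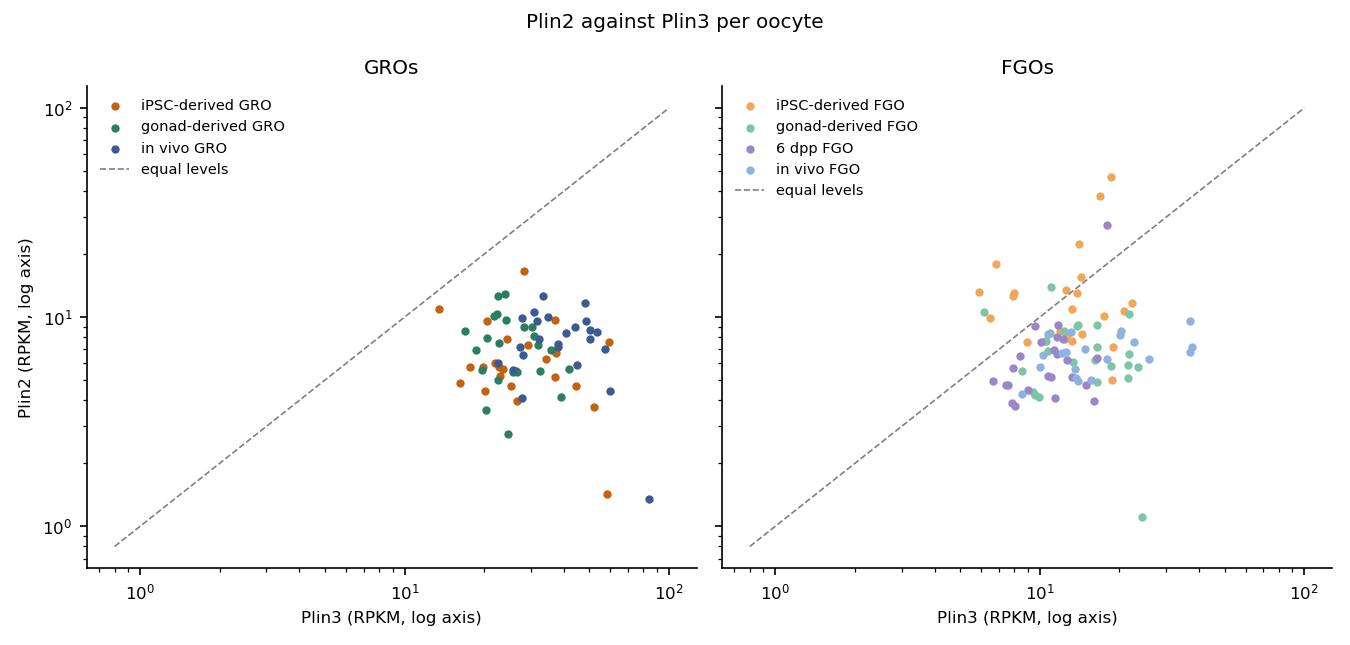
Plin2 against Plin3 per oocyte in RPKM on log axes, GROs on the left and FGOs on the right, with a dashed line where both are equal. No GRO lies above the line, and 10 of 24 iPSC-derived FGOs do.

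Pnpla2 (Entrez 66853, chromosome 7, 141455188 to 141460743) had higher medians in every GRO group than in any FGO group. Pnpla2 in GROs had a median of 90.3 CPM in vivo (63.4 to 116), 79.8 CPM from gonads (38.2 to 125) and 80.1 CPM from iPSCs (36.6 to 132). Pnpla2 in FGOs had a median of 70.0 CPM in vivo (58.5 to 87.0), 55.8 CPM from 6 dpp follicles (29.9 to 67.6), 57.2 CPM from gonads (18.4 to 86.4) and 46.0 CPM from iPSCs (23.9 to 62.3). All iPSC-derived and all in vivo FGOs were below the GRO median of their source, but stages overlapped within each source. Abhd5, the activator of this lipase, had between 2.88 and 3.96 CPM in all groups, and G0s2, an inhibitor of it, at most 0.0941 CPM.

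Growth from GRO to FGO in vivo was compared first, as the reference for the cultured oocytes. Plin3 was 2.16-fold lower in FGOs by pooled CPM (46.0 CPM, 95% interval 44.9 to 47.1, against 99.9 CPM, 98.4 to 101; exact Poisson intervals, which here and below cover counting error only). This was the sole member at least 2-fold lower, and 0 were at least 2-fold higher. Among all 13148 genes entered, 13.2% were at least 2-fold lower and 10.4% at least 2-fold higher. The other log2 ratios ran from -0.51 (Acadvl) to 0.23 (Cpt2), with Pnpla2 at -0.40. The median over the 9 members was -0.11, the same as over all genes. No member had FGOs and GROs without overlap, as 3.45% of genes did. Without in vivo FGOs 5, 7 and 19 the log2 ratio of Plin3 was -1.40 instead of -1.11, and with DESeq2 size factors it was -0.996, just inside 2-fold. Hadha had -0.03, or -0.21 without in vivo GROs 17 to 24.

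In growth of iPSC-derived oocytes Plin3 was 2.22-fold lower in FGOs (33.3 CPM, 32.4 to 34.2, against 74.7 CPM, 73.4 to 76.0), and Plin2 was 2.00-fold higher (29.7 CPM, 28.9 to 30.5, against 14.6 CPM, 14.0 to 15.2). These were the 2 of 9 members at least 2-fold apart, a share close to the 22.0% of all genes, with 15.3% of all 13115 genes at least 2-fold lower and 6.69% at least 2-fold higher. Just inside 2-fold were Cpt2, with a log2 ratio of -0.94, and Pnpla2, with -0.87. Of the 24 FGOs, 22 had less Cpt2 than any iPSC-derived GRO. Cpt1a (-0.69) and Acadvl (-0.56) were also lower, and Acadm (0.31) and Hadha (0.23) higher. The median over members was -0.56, against -0.11 over all genes. No member's stages were without overlap, against 8.01% of genes. Plin2 was just at the limit, and its log2 ratio was 0.71 without iPSC-derived FGOs 13 and 14. By medians over oocytes Plin3 had -0.92, inside 2-fold.

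Growth of gonad-derived oocytes left 0 members at least 2-fold apart in either direction, where 9.98% of 13068 genes were at least 2-fold lower and 5.82% at least 2-fold higher. Plin3 had the largest ratio, -0.82 (36.8 CPM against 65.5 CPM), and Pnpla2 followed with -0.52. Cpt2 had -0.32, Acadm 0.36 and Hadha 0.30. Acadl had 0.10, or -0.41 without gonad-derived FGOs 17 to 24. The median over members was -0.27, against -0.05 over all genes. No member's stages were without overlap, as 3.98% of genes were.

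Set side by side, the growth ratios of Plin3 were thus -1.11, -1.15 and -0.82 in vivo, from iPSCs and from gonads, and those of Pnpla2 -0.40, -0.87 and -0.52. Those of Cpt2 were 0.23, -0.94 and -0.32. In vivo, 19 of 20 FGOs were above the Cpt2 median of the GROs, whereas all 24 iPSC-derived FGOs and 22 of 24 gonad-derived FGOs were below that of theirs. The difference between sources was not tested.

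**Figure D4:**
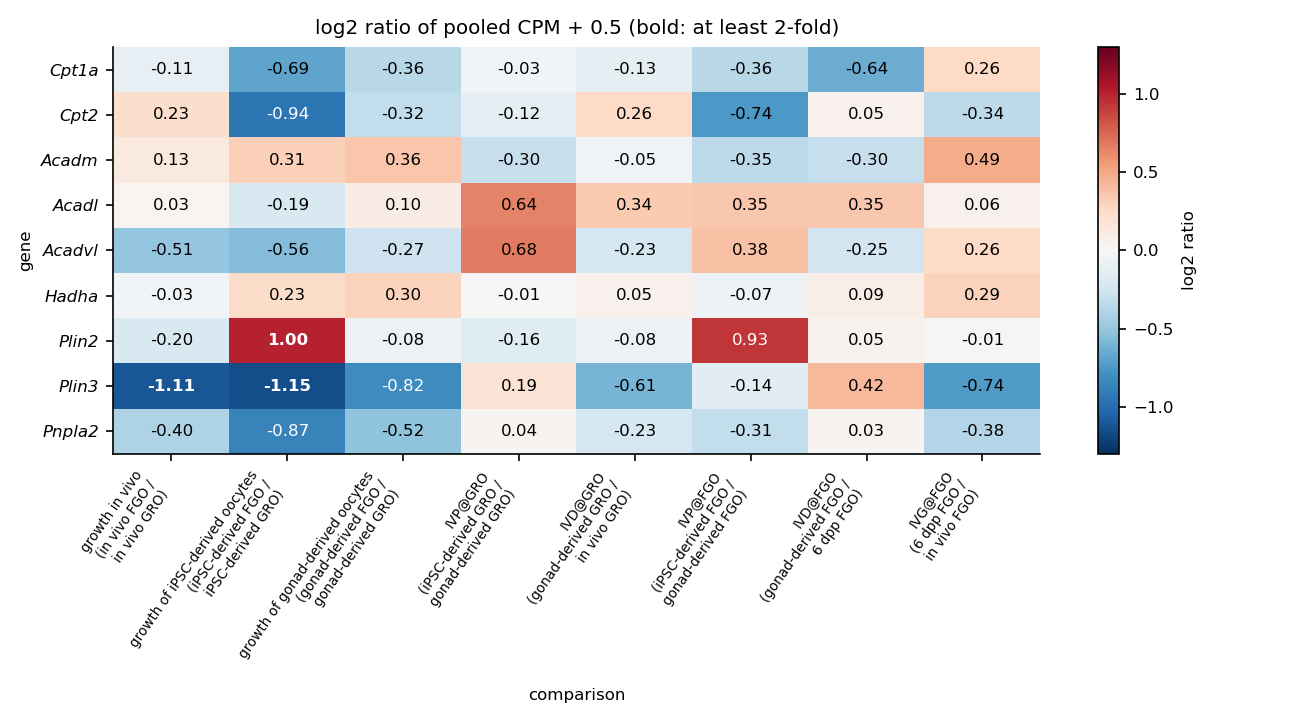
log2 ratios of pooled CPM + 0.5 for the 9 genes (rows) in 8 comparisons (columns, first group over second), red where the first group was higher and blue where it was lower, with ratios of at least 2-fold in bold. The bold cells are Plin3 in growth in vivo (-1.11) and of iPSC-derived oocytes (-1.15) and Plin2 in the latter (1.00).

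The study separated the steps of culture by comparing groups that it modelled as differing by 1 step. Other parts of the protocol also differed between these groups. Gonad-derived ovaries held all cells of dissociated gonads, and follicles from gonads and pups were grown in culture for a shorter time than iPSC-derived follicles. The part of these differences in the ratios was not tested. IVP@GRO, iPSC-derived against gonad-derived GROs, bears on how the germ cells were made. Here 0 members were at least 2-fold apart, with 1.98% of 13422 genes at least 2-fold higher, 1.75% at least 2-fold lower and 0.365% without overlap. Acadvl (log2 ratio 0.68; 17.4 CPM against 10.7 CPM) and Acadl (0.64; 13.8 CPM against 8.67 CPM) were the highest and Acadm the lowest (-0.30). Acadl had 0.41 without iPSC-derived GRO 8, its highest oocyte. For Acadvl, 22 of 23 iPSC-derived GROs were above the gonad-derived median and 8 were above every gonad-derived GRO. Dvl2, which shares bases with it, had 26.9 CPM against 18.1 CPM. The other 6 ratios lay between -0.16 and 0.19.

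IVD@GRO, gonad-derived against in vivo GROs, bears on the ovary culture. The study reports that both cultured GRO groups held larger oocytes than the in vivo GROs. The part of size in the ratios of IVD@GRO was not tested. Again 0 members were at least 2-fold apart, and 4.18% of genes were at least 2-fold higher, 2.70% at least 2-fold lower and 0.127% without overlap. Plin3 had the largest ratio, -0.61 (65.5 CPM, 64.2 to 66.7, against 99.9 CPM), and 22 of 24 gonad-derived GROs were below the in vivo median. Acadl had 0.34, which was 0.17 without gonad-derived GRO 6, 0.50 without in vivo GRO 7 and 0.68 by medians over oocytes. Cpt2 had 0.26, and the other ratios lay between -0.23 and 0.05. Hadha had 0.05, or -0.12 without in vivo GROs 17 to 24.

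IVP@FGO, iPSC-derived against gonad-derived FGOs, had 0 members at least 2-fold apart, with 2.19% of 13582 genes at least 2-fold higher, 3.74% at least 2-fold lower and 0.464% without overlap. Plin2 had the highest ratio, 0.93 (29.7 CPM against 15.4 CPM, 14.8 to 16.0), and 23 of 24 iPSC-derived FGOs were above the gonad-derived median. Cpt2 had the lowest, -0.74 (79.1 CPM, 77.7 to 80.4, against 133 CPM, 131 to 134). Acadvl and Acadl were again on the higher side, at 0.38 and 0.35, and Acadl had 0.86 without gonad-derived FGOs 17 to 24. Dvl2, which shares bases with Acadvl, had 27.4 CPM against 19.2 CPM. The remaining ratios were -0.36 for Cpt1a, -0.35 for Acadm, -0.31 for Pnpla2, -0.14 for Plin3 and -0.07 for Hadha. Plin2 had 0.64 without iPSC-derived FGOs 13 and 14, and 1.01 and 1.02 under the scaling of edgeR (TMM) and DESeq2, where it passed 2-fold.

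IVD@FGO, gonad-derived against 6 dpp FGOs, had 0 members at least 2-fold apart, with 1.58% of genes at least 2-fold higher, 0.950% at least 2-fold lower and 0.00736% without overlap. Plin3 had the highest ratio, 0.42. Cpt1a had the lowest, -0.64. It was 0.17 by medians over oocytes and between -0.74 and -0.02 when single oocytes were left out in turn. Without 6 dpp FGOs 10 and 12, whose granulosa sums were above 250 CPM, it was 0.22. Its sign thus rested on those oocytes. Acadl had 0.35, or 0.65 without the same oocytes and -0.17 without gonad-derived FGOs 17 to 24, so that its sign rested on those libraries. Without 6 dpp FGOs 3, 10 and 12 it was 0.84. Acadm had -0.30, or -0.27 without 6 dpp FGOs 10 and 12 and -0.36 without gonad-derived FGOs 17 to 24.

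IVG@FGO, 6 dpp against in vivo FGOs, bears on the growth of follicles in culture. It had 0 members at least 2-fold apart, with 1.22% of genes at least 2-fold higher, 2.97% at least 2-fold lower and 0.302% without overlap. Plin3 was the lowest at -0.74 (27.4 CPM, 26.6 to 28.2, against 46.0 CPM), and had -0.45 without in vivo FGOs 5, 7 and 19 and -0.36 by medians over oocytes. Acadm was the highest at 0.49 (68.9 CPM, 67.6 to 70.2, against 49.0 CPM, 47.9 to 50.2). Pnpla2 (-0.38) and Cpt2 (-0.34) were lower, with all 24 6 dpp FGOs below the in vivo median of each, and Hadha (0.29) was higher in 23 of 24. Cpt1a had 0.26, or -0.36 without 6 dpp FGO 12 alone. Acadl had 0.06, or -0.16 without 6 dpp FGOs 10 and 12 and in vivo FGOs 16 and 19, and -0.44 without 6 dpp FGOs 3, 10 and 12.

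Over all oocytes, 53.9% of the sum of squares of Plin3 (log2 of CPM + 1) lay between the stages, 35.4% of that of Pnpla2 and 0.116% of that of Acadl. Between sources within a stage, Cpt2 had the largest share, 41.7%, followed by Plin2 with 20.4% and Acadm with 19.3%. The medians over 14228 genes were 14.5% and 14.7%. These shares describe the oocytes and were not tested.

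Within groups, a few pairs of members varied together and the rest were more weakly related. After centring on group means, Pearson's r over the oocytes of all 7 groups was 0.52 between Acadvl and Plin3, 0.48 between Cpt2 and Pnpla2 and 0.44 between Acadvl and Hadha. The next pair, Hadha and Plin3, had 0.30. At the other end Cpt2 and Acadl had -0.25, Acadm and Plin3 -0.21 and Cpt2 and Acadm -0.20. These are correlations over oocytes of shared groups and libraries and carry no p. Gonad-derived FGO 19 held the lowest Cpt2, Plin2 and Pnpla2 of its group and the highest Acadm, Hadha and Plin3. The correlation with the log2 of total reads lay between -0.11 and 0.16 for the 9 genes. The centred correlation with the granulosa marker sum was highest for Cpt1a, at 0.45. That of Cpt1a was 0.04 without the 4 FGOs whose granulosa sums were above 250 CPM. With the theca and stroma sum Cpt1a had 0.42, or 0.09 without the same 4 FGOs, and Acadl had 0.33, and Acadl had 0.18 without 6 dpp FGOs 3, 10 and 12. The sum of cumulus cell markers was nearly all Pfkp, a glycolytic gene at 21.6 to 28.6 CPM, with the other 3 genes at most at 2.03 CPM, and its correlation with Acadvl was 0.32.

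For each member the gene most like it over all oocytes was sought among 8773 genes with a mean of at least 5 CPM, by Pearson's r of log2 of CPM + 1. Group means were left in here, so that differences between stages and sources enter these values. The closest pair was Plin3 and Rangap1, a regulator of nuclear transport (0.88), followed by Cpt2 and Enpp5 (0.83) and Pnpla2 and Tcn2, the vitamin B12 carrier (0.81). Enpp5 had 83.3 CPM in iPSC-derived FGOs and 171 to 281 CPM elsewhere. The others were Hadha with Nbr1 (0.70), Acadvl with Pkm (0.67), Acadm with Exoc4 (0.62), Cpt1a with Clu (0.59), Acadl with Ldha (0.52) and Plin2 with Dcaf13 (0.49). Clu, the partner of Cpt1a, had 30.7 CPM in 6 dpp FGOs and at most 7.20 CPM elsewhere. Without the same 4 FGOs its r with Cpt1a was 0.38 and its level in 6 dpp FGOs 1.56 CPM.

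Further genes of the pathway were read from 6 lists of 100 genes, of which 89 had values. In growth in vivo 15 of 74 entered genes (20.3%) were at least 2-fold lower and 2 (2.70%) at least 2-fold higher, beside 13.2% and 10.4% of all genes. In growth of iPSC-derived oocytes it was 22 and 2 of 74, beside 15.3% and 6.69%, and in growth of gonad-derived oocytes 15 and 4 of 73, beside 9.98% and 5.82%. Of other matrix enzymes of beta-oxidation, 2, 6 and 2 of 13 were lower in the 3 comparisons and 0 higher. Hsd17b10, a short-chain dehydrogenase, had log2 ratios of -2.50, -2.01 and -1.91, and Eci1, an isomerase for unsaturated chains, -1.46, -2.19 and -1.51. Of the peroxisomal genes 4 of 8, 5 of 8 and 3 of 7 were lower and 0 higher. Of other droplet coat proteins and lipases 2 of 14, 3 of 12 and 3 of 12 were lower and 0 higher. Abcd3, an importer of the peroxisome, had -1.39, -1.43 and -2.02, and Acaa1b, a peroxisomal thiolase, had 13.2 CPM in in vivo GROs and 2.55 CPM in in vivo FGOs.

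Of the genes for mitochondrial entry, 0 of 8 were 2-fold apart in growth in vivo, beside 13.2% of all genes lower and 10.4% higher. In growth of iPSC-derived oocytes 2 of 10 were lower and 1 higher, beside 15.3% and 6.69%. Acsl1, an acyl-CoA synthetase, was among the lower (-1.11, median 65.7 CPM against 142 CPM). In growth of gonad-derived oocytes 0 of 10 were 2-fold apart, beside 9.98% and 5.82%. Of the 12 regulators, 3 were lower and 1 higher in growth in vivo (beside 13.2% and 10.4% of all genes), 1 and 1 in that of iPSC-derived oocytes (15.3% and 6.69%) and 1 and 3 in that of gonad-derived oocytes (9.98% and 5.82%). The genes lower in growth in vivo were Rxra (-1.66), Acacb (-1.25) and Mlycd (-1.23), the last pair of which make and break down malonyl-CoA. Pparg, a nuclear receptor of lipid metabolism, was higher in iPSC-derived FGOs than GROs (1.61, 174 CPM against 56.8 CPM) and in gonad-derived FGOs (1.06). Its iPSC-derived FGOs, at 103 to 240 CPM, and GROs, at 30.2 to 99.4 CPM, did not overlap, as was so for 8.01% of genes. In growth in vivo Pparg was also at least 2-fold higher in FGOs (1.08, 72.8 CPM against 34.2 CPM).

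Of the genes of triglyceride synthesis, 4, 5 and 6 of 19 were lower in growth in vivo, of iPSC-derived and of gonad-derived oocytes and 1, 0 and 1 higher, beside the same shares of all genes. Gpat2, a mitochondrial acyltransferase, had -2.51, -4.05 and -2.91, with 75.1 CPM in in vivo GROs and 2.62 CPM in iPSC-derived FGOs. The largest ratios of all lists were between sources and belonged to Pnpla3, a lipase-like droplet protein, and Gpat3, an acyltransferase of the first step of triglyceride synthesis. Pnpla3 had pooled levels of 5.19 CPM in vivo, 365 CPM from gonads and 646 CPM from iPSCs among GROs, and of 4.51 CPM in vivo, 4.16 CPM from 6 dpp follicles, 142 CPM from gonads and 620 CPM from iPSCs among FGOs. Gpat3 had 1.79, 98.7 and 51.1 CPM in the same order among GROs and 2.52, 4.13, 40.6 and 51.2 CPM among FGOs. Between cultured and reference groups, the lists held 0 of 74 genes at least 2-fold apart in IVP@GRO, beside 1.98% of all genes higher and 1.75% lower. In IVD@GRO 2 of 74 (2.70%) were higher and 5 (6.76%) lower, beside 4.18% and 2.70%. In IVP@FGO 3 of 76 (3.95%) were higher and 2 (2.63%) lower, beside 2.19% and 3.74%. In IVD@FGO it was 3 (3.95%) and 1 (1.32%), beside 1.58% and 0.950%, and in IVG@FGO 1 (1.32%) and 2 (2.63%), beside 1.22% and 2.97%. These shares rest on a few genes each, and the lists were chosen with the Pnpla3 pattern known. The ratio of Gpat3 was 5.44 in IVD@GRO and 3.15 in IVD@FGO, and in the latter it was 0.07 without gonad-derived FGOs 17 to 24, which left 4.35 CPM against 4.13 CPM. Without the same FGOs Gpat3 had -4.35 instead of -1.27 in growth of gonad-derived oocytes and 3.41 instead of 0.33 in IVP@FGO. The ratio of Pnpla3 in IVD@FGO was 4.94, or 3.37 without them. That remainder rested on gonad-derived FGO 10. Without it as well the ratio was 0.07, with the other 15 oocytes at 6.19 CPM or less. FGO 10 was left out for its own high Pnpla3 level, so the ratios without it, here and below, only describe the low oocytes. In growth of gonad-derived oocytes Pnpla3 had -1.36, or -2.92 without FGOs 17 to 24 and -6.23 without FGO 10 as well. For IVP@FGO its ratios were 2.12, 3.69 and 6.99 in the same order. Without FGOs 17 to 24 alone the counts of list genes were 2 higher and 1 lower in IVD@FGO, beside 1.21% and 1.15% of all genes. They were 3 and 2 in IVP@FGO (2.85% and 4.15%) and 3 and 17 of 73 in growth of gonad-derived oocytes (5.72% and 10.8%).

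In gonad-derived oocytes both genes were split between oocytes with an empty gap. Gpat3 lay at or below 4.95 CPM in 4 gonad-derived GROs and at or above 41.2 CPM in 20, and at or below 29.0 CPM in 19 gonad-derived FGOs and at or above 168 CPM in 5. The 5 high FGOs were numbers 17, 18, 20, 22 and 23, and numbers 19, 21 and 24, at 14.8 to 29.0 CPM, also stood above all of numbers 1 to 16, whose highest was 11.9 CPM. The split of Pnpla3 was at 16 high of 24 GROs and 5 high of 24 FGOs, numbers 10, 17, 18, 19 and 22. Of the gonad-derived GROs, 13 were high for both genes, 3 for Pnpla3 alone, 7 for Gpat3 alone and 1 for neither. Of the gonad-derived FGOs, 3 were high for both, 2 for each alone and 17 for neither. In iPSC-derived oocytes Pnpla3 was at or above 321 CPM in each, and Gpat3 at or above 6.14 CPM.

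**Figure D5:**
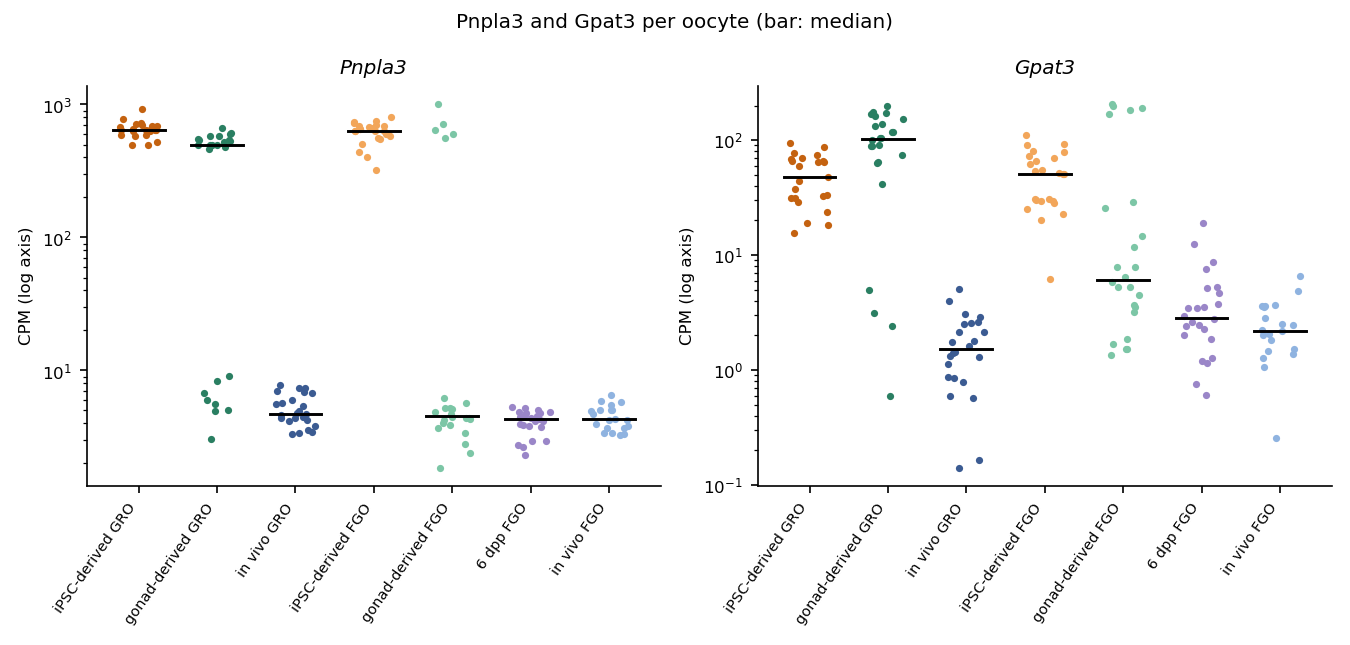
CPM (log axis) of Pnpla3 and Gpat3 in each oocyte (points) by group, with the median as a black bar. Gonad-derived oocytes fall into a high and a low set for each gene, iPSC-derived oocytes are high for Pnpla3, and in vivo and 6 dpp oocytes are low for it, at 7.81 CPM or less.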

How the data were processed

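Single oocytes were sequenced on an Illumina HiSeq (single-end reads). The authors aligned reads with STAR to GRCm38 (mm10; names from the submitters' processing notes) and counted uniquely mapped exonic reads per gene with QuasR. The deposited values are raw read counts per gene and oocyte. Per-oocyte totals set the precision, and 3 reads equal 0.0181 to 0.0207 CPM over a group's summed reads. Reads amplified by PCR without molecular identifiers are not independent molecules, so intervals cover counting error only.

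Counts were summed per group and scaled to CPM, and ratios were log2 of CPM + 0.5. A gene entered with over 1 CPM in at least 3 oocytes of the groups compared (growth) or of the stage. Labels name no animal or culture, so each group counted as 1 sample and no test was made. The study's own tests were not used. Genes of the lists were named by a rule, at most 3 per list and comparison with the largest ratios of at least 2-fold and at least 5 CPM in a group. Cpt1b, Cpt1c, Abhd5, G0s2 and, in growth in vivo, Pparg were named outside it, after their values were seen. Members and lists were chosen with earlier results of these data known, the Pnpla3 pattern included. Of 21950 identifiers 21907 matched RefSeq (GRCm38.p6). Alternatives were other pseudocounts, no filter, TMM (edgeR 4.0.16) and DESeq2 1.42.0 size factors, edgeR coefficients, medians or means over oocytes, a 4-fold rule and leaving oocytes out, some chosen after seeing the data. Scripts (Python 3.11.15, pandas 2.3.3, numpy 2.4.6, scipy 1.17.1, matplotlib 3.10.9, R 4.3.3) were tested on simulated data. The level of Hadhb was not analysed here, and only its promoter was read.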

Additional observations from a re-analysis of the deposited data

How the results depend on the processing

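The counts of members at least 2-fold apart moved in 3 comparisons. In growth in vivo the count of 1 became 0 with DESeq2 size factors and 0 with a 4-fold rule. In growth of iPSC-derived oocytes the count of 2 became 1 with a pseudocount of 2 CPM, 0 with medians over oocytes, where both Plin2 and Plin3 were inside 2-fold, 1 without iPSC-derived FGOs 13 and 14, 0 with a 4-fold rule, and between 1 and 2 when single oocytes were left out in turn. In IVP@FGO the count of 0 became 1 with TMM factors, 1 with DESeq2 size factors and 1 with edgeR coefficients, where Plin2 passed 2-fold. The cause was not tested, apart from Plin2 and Plin3 lying near 2-fold. In 828 alternatives none of the 72 ratios of members moved by more than the standard deviation between oocytes. The ratios are pooled over 20 to 24 oocytes and this spread is that of single ones, so the limit could hardly be passed. No stability is read from it. The spread is wide for Cpt1a and Acadl. The sign changed in at least 1 alternative for 17 of these ratios, of which 13 lay within 0.1 of 0. The other 4 were Cpt1a in IVD@FGO (-0.64, up to 0.23) and IVG@FGO (0.26, down to -0.61) and Acadl in IVD@FGO (0.35, down to -0.17) and growth of iPSC-derived oocytes (-0.19, up to 0.03). Without the filter on low counts, the share of all genes at least 2-fold apart was 14.2% instead of 23.7% for growth in vivo, 13.2% instead of 22.0% and 9.43% instead of 15.8% for that of iPSC- and gonad-derived oocytes, 2.29% instead of 3.73% (IVP) and 4.21% instead of 6.88% (IVD) at the GRO stage, and 3.71% instead of 5.93% (IVP), 1.58% instead of 2.53% (IVD) and 2.61% instead of 4.20% (IVG) at the FGO stage, because more genes near 0 were counted. Scaling moved the median of all genes by at most 0.13 on the log2 scale, in growth of iPSC-derived oocytes. No paired analysis was possible because no label ties an oocyte to an animal, embryo or culture. With 3 to 9 Cpt1a reads in a median oocyte, depth limits what single oocytes show for it.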
